A study of Mus musculus with 24 samples.

Results

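Hindlimb buds were compared with forelimb buds in mouse embryos at E11.5 (days of embryonic development) that lack the U11 small nuclear RNA in the limb mesenchyme. The members are the 6 libraries whose titles give the stage, the mutant genotype and the limb, 3 from hindlimb (HL) and 3 from forelimb (FL), of 24 libraries in all. The series profiled total RNA of dissected limb buds of strain C57/Bl6 by RNA sequencing, in 8 groups of 3 libraries (by limb, by genotype and by stage, E10.5 or E11.5). Mutant embryos were U11flx/flx::Prrx1-Cre+ and WT embryos U11flx/flx::Prrx1-Cre-, so the floxed alleles are common to both genotypes and the Cre transgene separates them. Prrx1-Cre acts in limb bud mesenchyme, so surface ectoderm, blood, endothelium and the muscle precursors that enter the bud from the somites keep an intact gene. The labels do not say from which or from how many embryos a library came, and p-values therefore measure the spread between these libraries, which may be technical.

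U11 is an RNA of the minor spliceosome, the machine that removes a small, conserved class of introns. It recognises the 5′ splice site of these introns together with U12, and genes that hold one such intron among many major ones depend on it for a correct mRNA. The forelimb bud appears before the hindlimb bud, and the limbs are told apart by few transcription factors: Tbx5 in the forelimb and Pitx1, Tbx4 and Isl1 in the hindlimb.

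The deposited values are TPM (transcript abundance already divided by transcript length), which sum to 1000000 in each library and keep no read depth. Nuclear protein-coding genes held 18.0 to 22.9% of TPM in mutant FL and 14.6 to 16.96% in mutant HL, without overlap, the rest being mainly structural RNA (72.2 to 77.7% and 78.3 to 82.0%). All values below are therefore rescaled TPM, in which each E11.5 library was multiplied by 1 factor so that the median log2 value of 3949 genes was equal. Correlations of log2 values between libraries of 1 group were 0.965 to 0.975 in mutant FL and 0.959 to 0.978 in mutant HL, over genes of shared libraries. Xist, which is transcribed from the inactive X chromosome, stood at 31.5 TPM in mutant FL 3 and 21.5 TPM in mutant HL 3. It stood at most at 0.142 TPM in the other 4 mutant libraries, so each mutant limb held 1 such library. In the E11.5 WT libraries Xist was at most 0.136 TPM, so no WT group held one. What this difference between genotypes does to the comparison with WT was not tested. The 8 limb mesenchyme markers summed to 132 to 144 rescaled TPM in mutant FL and 111 to 130.2 in mutant HL, and the 6 liver markers to at most 0.806.

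Rnu11, the targeted gene, was measured first (ENSMUSG00000077323, GRCm38 chr4:132270080-132270213, minus strand, a single-exon small nuclear RNA gene). Its transcript is shown because its first bases pair with the minor 5′ splice site, and it is taken from GENCODE M21. Capitals mark the 4 bases complementary to the end of the minor 5′ splice site consensus.
Rnu11: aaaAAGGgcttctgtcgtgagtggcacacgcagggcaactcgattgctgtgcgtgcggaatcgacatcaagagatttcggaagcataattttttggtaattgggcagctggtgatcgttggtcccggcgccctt
Rnu11 stood at 201, 132 and 116 rescaled TPM in mutant FL and at 354, 365 and 293 in mutant HL. It stood at 1110.2, 1065 and 1149 in WT FL and at 1798, 1401 and 787 in WT HL. The mutant libraries of both limbs lay below all WT libraries, and the mutant HL libraries lay above the mutant FL libraries.
The mutant mean was 13.5% of WT in FL and 25.4% in HL. Mutant HL held 2.25 times the Rnu11 of mutant FL (337 ± 38.8 against 149.7 ± 45.2, SD, n = 3), and the exact two-sided permutation p was 0.1, the smallest that 3 against 3 libraries allow. In the fit across all genes the difference was 1.20 ± 0.27 (SE) on the log2 scale with a limma adjusted p of 0.0876, and on the deposited scale 0.68 with 0.032. In WT the HL mean was 1.20 times the FL mean, with overlapping libraries (exact permutation p = 0.6). Bulk RNA does not show whether fewer cells hold U11 or each cell holds less, and how far cells outside the Cre domain contribute cannot be told apart. Gm28872, an annotated gene that covers Rnu11 on the opposite strand, moved with it (1.24 ± 0.22, limma adjusted p = 0.039). The strand counted is not given in the sources used here, so Rnu11 and Gm28872 reads cannot be separated.

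Across the transcriptome few genes separated the limbs beyond the spread between libraries, and the limb identity genes Pitx1 and Tbx5 had the largest rise and the largest fall among them. The test was limma on log2(TPM + 1) with 8 residual degrees of freedom, two-sided, with Benjamini-Hochberg adjustment over all 11126 genes tested; a gene is called below when its adjusted p was under 0.05. The added 1 makes the log2 difference of low genes smaller than their true ratio. In mutants 49 genes were called (0.44% of those tested), 29 higher in HL (0.261%) and 20 lower in HL (0.18%), of which 40 were nuclear protein-coding. At unadjusted p under 0.05 there were 1788. Rescaling set the split between directions: 59.2% of the calls were higher in HL, whereas on the deposited scale 5140 genes were called and 0.545% of them were higher (28 higher, 5112 lower). The median difference over all genes was -0.44 on the deposited scale and -0.02 after rescaling, and 33 genes were called on both scales in the same direction. The count moved between 12 (without mutant FL 1) and 88 (without mutant FL 3) when 1 library was left out, with 13 without mutant FL 2, 24, 20 and 23 without mutant HL 1, 2 and 3. Of the 49 calls, 13 held in each of these 6 leave-outs. Genes were tested when they reached 1 deposited TPM in at least 3 of the 12 E11.5 libraries. Of the 49 calls 5, all lower in HL (Cdkn1a, Eda2r, Lbx1, Phex and Spag1), reached it only in the 3 mutant FL libraries, as 241 of the 11126 tested genes passed only with that group. These genes entered the test because they were high there. They drop out of the filter without a mutant FL library, so for them these leave-outs leave the gene set as it was. On the deposited scale 16 of the 29 rises were not called, with differences of -0.02 to 0.31.

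The 4 limb identity genes were all called in mutants. Tbx5, the T-box factor that starts forelimb outgrowth, stood at 6.94, 7.82 and 6.28 rescaled TPM in mutant FL and at 0.184, 0.00528 and 0.322 in mutant HL. The groups were far apart (log2 difference -2.78 ± 0.10, limma adjusted p = 6.28e-08). Pitx1, the homeodomain factor of hindlimb identity, stood at 0.144, 0.121 and 0.0395 in mutant FL and at 19.2, 15.1 and 12.2 in mutant HL. This was the largest rise among the calls (3.88 ± 0.15, limma adjusted p = 6.28e-08). Tbx4, the hindlimb T-box factor, stood at 0.532, 0.796 and 0.483 in FL and at 6.32, 5.14 and 4.21 in HL (1.95 ± 0.15, limma adjusted p = 5.11e-05). Isl1, which acts upstream of hindlimb outgrowth, stood at 0.613, 0.523 and 0.55 in FL and at 2.41, 2.66 and 3.47 in HL (1.29 ± 0.11, limma adjusted p = 0.000181). No library of either limb crossed into the range of the other for these genes, and all 4 stayed called in each of the 6 leave-outs. With all 24 libraries in the fit Isl1 was not called (limma adjusted p = 0.481).

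The limb differences of these genes were of similar size in WT, which the design allows to be tested directly. In WT the difference was -2.95 for Tbx5, 4.11 for Pitx1, 2.39 for Tbx4 and 1.34 for Isl1. Mutant minus WT came to 0.17 for Tbx5 (limma adjusted p = 0.594), -0.22 for Pitx1 (0.623), -0.44 for Tbx4 (0.374) and -0.05 for Isl1 (0.893). None of these passed, which does not show that the effects are equal. Tbx5 in HL was at most 0.0266 rescaled TPM in the WT libraries and 0.184 and 0.322 in mutant HL 1 and 3, levels close to 0 on either side.

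**Figure D1:**
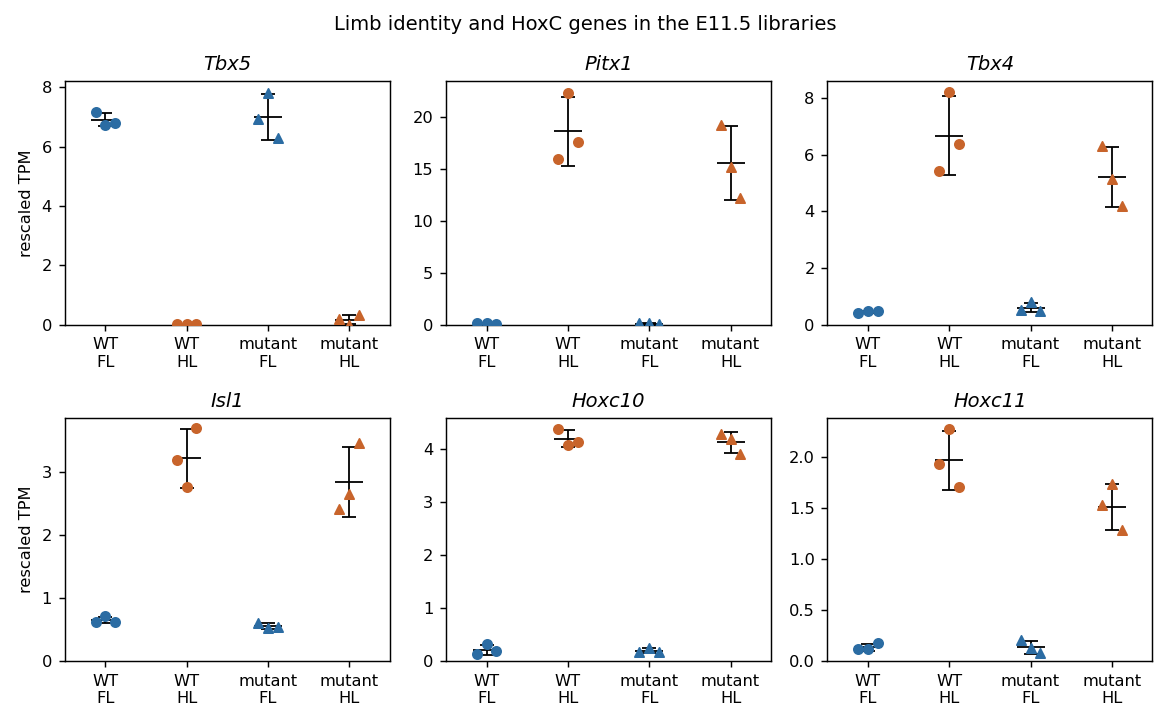
Rescaled TPM (vertical axis) of 6 genes in the 12 E11.5 libraries; circles are WT, triangles mutant, blue FL, orange HL, and bars give the mean ± SD of 3 libraries. Tbx5 lies between 6.28 and 7.82 in mutant FL and at most at 0.322 in mutant HL, and the other 5 genes show the opposite arrangement, with mutant libraries of a limb beside the WT libraries of that limb.

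Of the genes beside the identity genes, 3 noncoding ones differed in the same direction, and they are named here after their values were seen. Other neighbours were not called (Tbx2 beside Tbx4, and Parp8 and Emb beside Isl1) or did not pass the filter on low values (Catsper3, 16053 bases from Pitx1, and Gm11444 beside Tbx4). Gm43050, a long noncoding RNA gene whose 5′ end lies 748 bases from Tbx5 on the opposite strand, stood at 5.19, 6.09 and 4.54 rescaled TPM in mutant FL and at 0.151, 0.0415 and 0 in mutant HL (-2.55 ± 0.13, limma adjusted p = 6.31e-07). 1700021F13Rik, 24799 bases from Tbx5, stood at 6.4, 4.64 and 4.52 in FL and at 0.0761, 0 and 0 in HL (-2.58 ± 0.12, 4.62e-07). Gm28760 lies within Pitx1 on the same strand and was higher in HL (1.33 ± 0.13, limma adjusted p = 0.000656), so its reads and those of Pitx1 cannot be told apart. These 3 genes were also called in WT, with differences of -2.59, -2.29 and 1.67, and each held in the 6 leave-outs.

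Among the 9 HoxC genes, 4 passed the filter on low values (at least 1 TPM in at least 3 libraries), and the 2 more posterior ones were called. The HoxC cluster carries position along the body axis, and its posterior members are active in the hindlimb and not the forelimb. Hoxc10 stood at 0.175, 0.254 and 0.176 rescaled TPM in mutant FL and at 4.28, 4.18 and 3.9 in mutant HL (2.09 ± 0.08, limma adjusted p = 6.28e-08). Hoxc11 stood at 0.205, 0.134 and 0.0779 in FL and at 1.53, 1.73 and 1.28 in HL (1.14 ± 0.10, limma adjusted p = 0.000205). Both were higher in HL in every library and held in each leave-out. With all 24 libraries in the fit Hoxc11 was not called (limma adjusted p = 0.106). The WT differences were 2.09 for Hoxc10 and 1.38 for Hoxc11, with mutant minus WT of 0.00 and -0.24 (limma adjusted p = 0.996 and 0.451). Hoxc5 (-0.40 ± 0.19, limma adjusted p = 0.336) and Hoxc6 (-0.26 ± 0.15, 0.386) did not pass, though all 3 HL libraries of each lay below the FL libraries. Hoxc5 passed the filter only with the mutant FL libraries. The gene model of Hoxc5 overlaps Hoxc10 on the same strand. Gm53, a noncoding gene 6589 bases from Hoxb9, rose with the posterior HoxC genes. It stood at 0.221, 0.15 and 0.122 in FL and at 1.58, 1.27 and 2.07 in HL (1.17 ± 0.12, limma adjusted p = 0.000824, WT difference 1.16). With all 24 libraries in the fit Gm53 was not called either (limma adjusted p = 0.242).

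The posterior HoxA and HoxD genes, which pattern the limb from the upper arm or thigh to the digits, tended the other way. Of 9 tested, 8 were lower in mutant HL, against 55.0% of all genes, with a median of -0.48 against -0.02 over all genes, and 1 was called (0.18% of all genes were called lower). Hoxd10 stood at 7.19, 7.49 and 7.53 rescaled TPM in mutant FL and at 4.66, 4.02 and 4.77 in mutant HL, without overlap (-0.62 ± 0.09, limma adjusted p = 0.0145). It lost the call without mutant FL 1 or 2 and without mutant HL 1 or 2. In WT the difference was -0.48 for Hoxd10 and the median of the list -0.39, with 6 of 9 lower. Mutant minus WT was -0.14 for Hoxd10 (limma adjusted p = 0.616). It was below 0 for all 9 members, with a median of -0.35 and 1 at unadjusted p under 0.05. Across all 11126 genes it was below 0 for 5759. Hoxa13 and Hoxd13, the most distal members, overlapped between mutant limbs (-0.44, limma adjusted p = 0.595, and -0.93, 0.259), and mutant HL 3 was the lowest library for both at 2.75 and 1.82. Without it Hoxa13 stood at 0.15. Of 6 anterior HoxA and HoxD genes tested, all were lower in mutant HL (median -0.21, WT 0.13) and 0 were called by limma, with 3 at unadjusted p under 0.05.

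Other genes shared the limb difference of WT. Igf1, a growth factor, stood at 3.77, 3.46 and 2.94 rescaled TPM in mutant FL and at 7.78, 11.2 and 6.75 in mutant HL, all HL libraries above all FL libraries (1.10 ± 0.16, limma adjusted p = 0.0136). The WT difference was 1.71, and mutant minus WT was -0.60 (limma adjusted p = 0.343). Kctd12, an auxiliary subunit of GABA-B receptors, stood at 5.74, 5.44 and 5.93 in FL and at 2.66, 1.94 and 2.11 in HL (-1.06 ± 0.15, limma adjusted p = 0.0122; WT -1.17). Gm26778, which overlaps Kctd12 on the opposite strand, fell too (-0.61 ± 0.11, 0.0395; WT -1.08). Igf1 lost its call without mutant FL 1 or 2, and Kctd12 without mutant FL 1 or 2 or mutant HL 2 or 3.

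In WT 16 genes were called (0.144%), 9 higher in HL (0.0809%) and 7 lower (0.0629%). Both genotypes called 13 of them in the same direction, which is 26.5% of the mutant calls and 81.2% of the WT calls. Among the 49 mutant calls 32 had the same sign in WT, against 42.1% of all genes with the same sign in both genotypes, and 17 had the opposite sign. The WT libraries did not overlap in the direction of the mutant call for 21 of the 49, against 4.96% of all genes with WT HL above FL and 7.06% with WT HL below FL. The remaining 36 mutant calls were not called in WT, which does not show that they differ between genotypes. For a description of these 36, the mutant mean of each limb was set beside the WT mean of the same limb. The forelimb mutants lay farther from WT than the hindlimb mutants in 33 of 36, against 62.7% of all genes tested. Of the 21 that were higher in mutant HL, mutant FL was both farther from WT and below it in 20. The medians over the 21 were -0.78 in FL and -0.07 in HL. Of the 15 lower in mutant HL, mutant FL was both farther from WT and above it in 13. The medians over the 15 were 0.54 in FL and -0.06 in HL. In Gm24041, Hoxd10 and Hps5 the hindlimb mutants lay farther from WT. The 36 were picked by the difference between these same mutant libraries. The share over all genes is therefore no like background, and the direction in mutant FL follows largely from that choice. Neither share was tested.

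**Figure D2:**
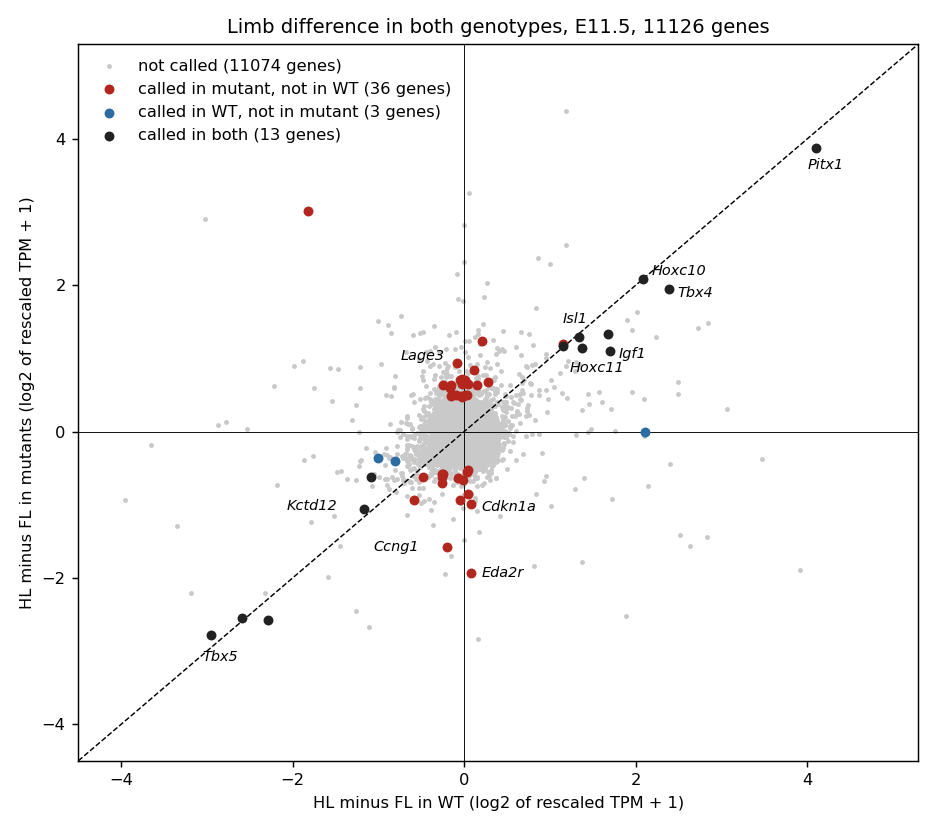
Each point is 1 of 11126 genes; the horizontal axis gives HL minus FL in WT and the vertical axis HL minus FL in mutants, both on log2(rescaled TPM + 1), with the line of equal effects dashed. The 13 genes called in both genotypes (black) lie along the line from Tbx5 to Pitx1, and most of the 36 called in mutants and not in WT (red) lie near 0 on the horizontal axis, with Eda2r and Ccng1 lowest.

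Targets of p53, the transcription factor that answers DNA damage and other stress by halting the cell cycle or starting cell death, were lower in mutant HL. Of 27 tested, 23 were lower, with a median of -0.51 against -0.02 over all genes, 4 were called, all lower (0.18% of all genes were), and 15 had all HL libraries below all FL libraries (12.3% of all genes). Of the 27, 4 passed the filter only with mutant FL, Eda2r and Cdkn1a among them. Of the other 23, 19 were lower, 2 were called and 12 did not overlap, with a median of -0.51. In WT the median over the 27 was 0.04, with 11 lower and 0 called by limma in either direction. Mutant minus WT was below 0 for 21 of the 23, and 12 had an unadjusted p under 0.05 for that difference. Across all 11126 genes 5759 were below 0 and 1493 had such a p. The same mutant libraries enter this difference and the fall itself, so it is no separate support. When 1 mutant library was left out, the median over all 27 stayed between -0.58 (without mutant FL 3) and -0.42 (without mutant FL 1). These 27 include the 4 that passed the filter only with mutant FL, and the range was not computed without them. The summed level of the whole list, with these 4 in it, was 158 to 217 rescaled TPM in mutant FL and 119.7 to 132 in mutant HL. In WT it was 127 to 131 in FL and 119 to 129 in HL.

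Eda2r, a receptor for a form of ectodysplasin and a known p53 target, had the largest fall after Tbx5 among annotated protein-coding genes called. It stood at 6.55, 5.42 and 3.23 rescaled TPM in mutant FL and at 0.632, 0.429 and 0.569 in mutant HL. The WT libraries stood at 0.423, 0.5 and 0.405 in FL and at 0.596, 0.408 and 0.589 in HL, so the mutant HL libraries lay within or just above the WT range and the mutant FL libraries far above it. The mutant difference was -1.94 ± 0.17 (limma adjusted p = 0.000197), a mean 9.32 times higher in FL. It held in each leave-out and without the filter on low values (limma adjusted p = 0.00112). Eda2r was also the 1 gene of 11126 (0.00899%) called for the limb difference between genotypes (-2.02 ± 0.24, limma adjusted p = 0.036), with 1493 genes at unadjusted p under 0.05. Since Eda2r was tested only through the mutant FL libraries in which it was high, that call is conditional on them, and without the filter it was lost (limma adjusted p = 0.152). It was also lost in each of the 9 leave-outs in which Eda2r still passed the filter. With the gene set left as in the full fit, it was called in 3 of 12 leave-outs, those without mutant FL 1, mutant FL 3 or WT HL 2.

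Ccng1, which encodes cyclin G1, stood at 34.9, 30.1 and 18.2 rescaled TPM in mutant FL and at 7.96, 8.27 and 8.74 in mutant HL. The WT libraries of both limbs ranged from 5.62 to 9.19, so again the mutant FL libraries alone stood apart. The mutant difference was -1.58 ± 0.20 (limma adjusted p = 0.00467), 3.33 times higher in FL, and held in each leave-out, while mutant minus WT was -1.37 (limma adjusted p = 0.203). Cdkn1a, which encodes the cell cycle inhibitor p21, stood at 2.78, 3.09 and 1.28 in mutant FL and at 0.807, 0.668 and 0.492 in mutant HL (-0.99 ± 0.18, limma adjusted p = 0.0483). It was tested only through the mutant FL libraries, the group in which it was high. Plk2, a polo-like kinase, stood at 10.7, 9.92 and 7.86 in mutant FL and at 5.59, 5.38 and 6.47 in mutant HL (-0.62 ± 0.12, 0.0497). Neither overlapped between the mutant limbs, and for each of the 4 genes mutant FL 3 was the lowest of the mutant FL libraries. Cdkn1a and Plk2 were called only just. Both lost the call without mutant FL 1 or 2, without each mutant HL library, and without the filter on low values (limma adjusted p = 0.119 and 0.113). Bax, which opens the outer mitochondrial membrane in apoptosis, stood at 31.1, 34.9 and 26.1 in FL and at 21.5, 20.5 and 20.2 in HL (-0.54 ± 0.11, limma adjusted p = 0.0696). Of 15 apoptosis effectors, Bax included, 9 were lower in mutant HL (median -0.07) and 0 were called by limma, with 4 at unadjusted p under 0.05.

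**Figure D3:**
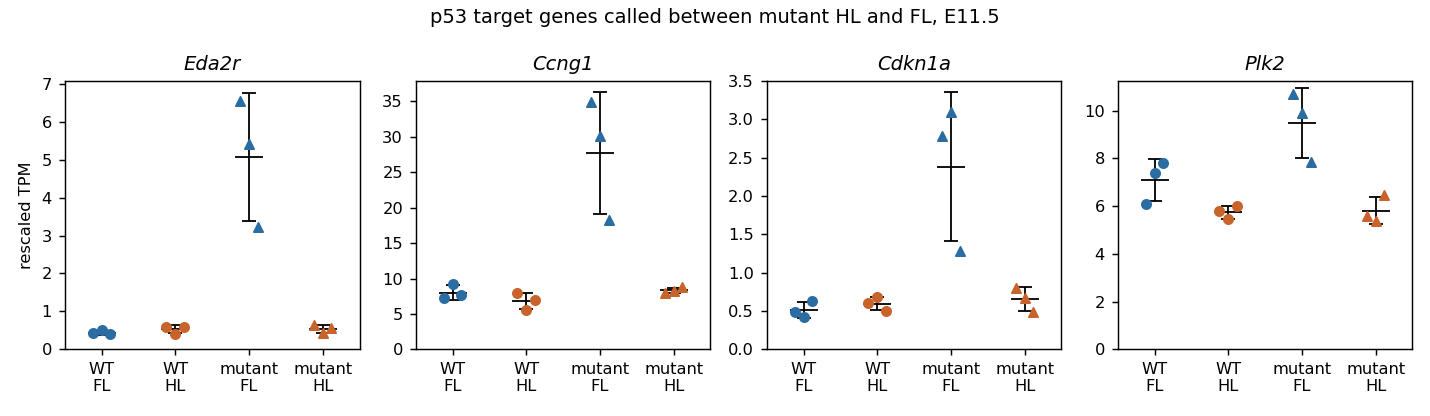
Rescaled TPM (vertical axis) of the 4 p53 targets called between mutant limbs, in the 12 E11.5 libraries; symbols and bars are as in the plot of identity genes. The mutant FL libraries of Eda2r (3.23 to 6.55), Ccng1 (18.2 to 34.9) and Cdkn1a (1.28 to 3.09) lie above every other library, and the mutant HL libraries lie among or near the WT libraries.

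The promoters of 3 of these genes are shown, from 250 bases before to 50 after the transcription start (RefSeq, GRCm38.p6), because p53 binds pairs of a 10-base half-site. Each promoter was searched on both strands for the p53 half-site consensus. It was found in 8.36% of 32851 promoters of this length, and in 10 of the 28 promoters of tested p53 targets, which had an entry for 20 genes. The list consists of known targets, so this share is no independent evidence. Capitals mark the half-site in Ccng1 (chr11:40755237-40755536, minus strand) and Cdkn1a (chr17:29090729-29091028, plus strand), and TATAAA, found in 13.6% of promoters, in Eda2r (chrX:97377160-97377459, minus strand).
Ccng1: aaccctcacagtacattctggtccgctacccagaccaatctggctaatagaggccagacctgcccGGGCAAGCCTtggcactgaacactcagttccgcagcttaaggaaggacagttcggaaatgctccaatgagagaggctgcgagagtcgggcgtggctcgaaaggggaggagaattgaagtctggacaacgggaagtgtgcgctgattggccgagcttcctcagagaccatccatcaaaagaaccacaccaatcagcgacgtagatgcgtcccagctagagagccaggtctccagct
Cdkn1a: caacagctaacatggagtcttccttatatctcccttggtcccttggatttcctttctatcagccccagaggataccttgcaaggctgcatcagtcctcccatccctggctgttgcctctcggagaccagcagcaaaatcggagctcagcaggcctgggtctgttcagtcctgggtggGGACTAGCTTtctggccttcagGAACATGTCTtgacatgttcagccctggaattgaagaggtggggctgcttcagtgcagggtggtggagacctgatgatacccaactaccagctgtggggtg
Eda2r: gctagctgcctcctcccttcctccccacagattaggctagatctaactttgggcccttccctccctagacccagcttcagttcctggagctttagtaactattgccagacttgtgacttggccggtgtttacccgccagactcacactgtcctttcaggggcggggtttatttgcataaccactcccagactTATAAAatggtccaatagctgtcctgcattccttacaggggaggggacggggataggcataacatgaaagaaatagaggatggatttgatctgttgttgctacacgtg
The Ccng1 match starts 185 bases before the start site and the Cdkn1a matches 73 and 51 bases before it. In Eda2r these letters of the half-site are not in the window, and TATAAA starts 58 bases before the start site. The 4 called targets had 5 promoters, of which 2 held the half-site and 1 held TATAAA, and those without a match are not shown. Plk2, the other called target, held neither. A match is a description of the letters and not of a bound site.

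Genes that hold a minor intron, which need U11 for their splicing, were on balance somewhat higher in mutant HL than in mutant FL after rescaling. The list was written from general knowledge without a check of intron sequences and was shortened from 77 to 52 genes with the data in hand, and splicing itself was not analysed here. Of 50 tested, 35 were higher in mutant HL, with a median of 0.09 against -0.02 over all genes, whereas on the deposited scale the median was -0.35 against -0.44. The call was made for 3 genes, all higher, against 0.261% of all genes, and 19 had all HL libraries above all FL libraries, against 9.66% of all genes. The list as first written had 74 genes tested, of which 50 were higher, 6 were called, all higher, and the median was 0.09. In WT the median of the list used was 0.02 and 0 were called by limma. Their summed level was 630 to 699 rescaled TPM in mutant FL, 736 to 787 in mutant HL, 720.3 to 764 in WT FL and 734 to 759 in WT HL.

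Spc24, a subunit of the kinetochore's NDC80 complex, stood at 5.29, 5.68 and 7.11 rescaled TPM in mutant FL and at 9.08, 10.9 and 11.4 in mutant HL (0.71 ± 0.11, limma adjusted p = 0.0145). The 6 WT libraries ranged from 11.8 to 13.5, above every mutant library, with the mutant FL libraries lowest. Kifap3, an accessory subunit of the kinesin-2 motor, stood at 3.54, 3.22 and 3.47 in mutant FL and at 5.23, 5.02 and 5.45 in mutant HL (0.50 ± 0.08, limma adjusted p = 0.0203). Polr2e, a subunit shared by the nuclear RNA polymerases, stood at 19.6, 21.6 and 24.2 in mutant FL and at 29, 31.8 and 32.5 in mutant HL (0.49 ± 0.09, 0.0483). On the deposited scale none of the 3 was called, with differences of 0.24 for Spc24 (limma adjusted p = 0.277), 0.08 for Kifap3 (0.713) and -0.01 for Polr2e (0.958). For all 3 genes the mutant HL libraries lay above the mutant FL libraries. Spc24 lost its call without mutant FL 1 or 2 or mutant HL 2 or 3, and Kifap3 and Polr2e also without mutant HL 1. Mutant minus WT was 0.75 for Spc24, 0.60 for Kifap3 and 0.49 for Polr2e, with limma adjusted p of 0.203, 0.203 and 0.282. The 14 tested protein components of the minor spliceosome showed no call by limma (3 at unadjusted p under 0.05), with a median of -0.14, and Zcrb1 (-0.02) and Rnpc3 (-0.13), their most abundant members, overlapped between limbs.

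**Figure D4:**
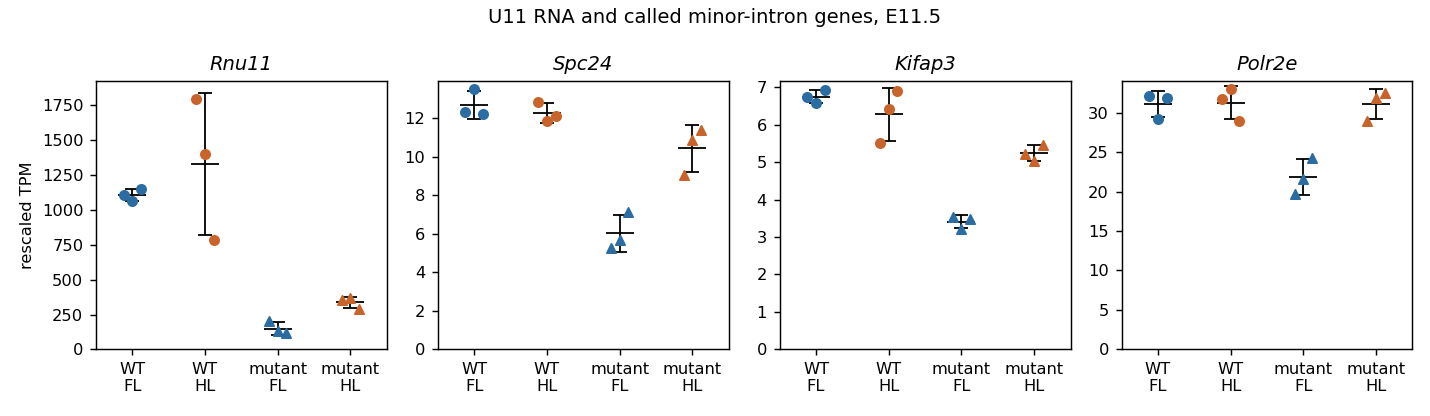
Rescaled TPM (vertical axis) of Rnu11 and the 3 called minor-intron genes in the 12 E11.5 libraries; symbols and bars are as in the plot of identity genes. In each panel the mutant FL libraries are lowest and the mutant HL libraries lie above them (Rnu11 116 to 201 against 293 to 365); on the deposited scale the Polr2e difference was -0.01.

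Several other genes were higher in mutant HL. Lage3, a subunit of the KEOPS complex of tRNA modification, stood at 7.85, 6.03 and 7.89 rescaled TPM in mutant FL and at 14.2, 14.6 and 15.3 in mutant HL, next to 13.6 to 19.4 in the WT libraries. Its difference was 0.93 ± 0.12 (limma adjusted p = 0.00744), and it held in each leave-out. Sptssa, a small subunit of serine palmitoyltransferase, stood at 9.64, 9.68 and 10.1 in FL and at 15.9, 15.3 and 16.1 in HL (0.63 ± 0.09, 0.0139). Pde6d, a chaperone of prenylated proteins, stood at 2.32, 2.23 and 2.51 in FL and at 4.77, 4 and 4.06 in HL (0.65 ± 0.09, limma adjusted p = 0.008). In each of these the mutant FL libraries lay below all other E11.5 libraries. On the deposited scale Lage3 stayed called (limma adjusted p = 0.0386), while Sptssa stood at 0.15 (0.461) and Pde6d at 0.26 (0.224).

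Further rises were those of Coa3, an assembly factor of cytochrome c oxidase (0.70 ± 0.10, limma adjusted p = 0.00939), Dap3, a mitoribosomal protein (0.72 ± 0.11, 0.0145), and Bnip3, a mitophagy receptor of the glycolysis and hypoxia list (0.65 ± 0.11, 0.0374). Rfc5, a subunit of the clamp loader of DNA replication, was higher by 0.69 ± 0.12 (limma adjusted p = 0.0395). Magt1, which takes part in N-glycosylation, was higher by 0.64 ± 0.11 (0.0405), and Ccdc28b by 0.85 ± 0.13 (0.016). All 3 HL libraries of these genes lay above all 3 FL libraries. On the deposited scale Ccdc28b alone of these 6 was called (limma adjusted p = 0.042). Apart from Lage3, each gene named in these 2 groups of rises lost its call in at least 1 leave-out, Bnip3 in all 6, and Pde6d and Coa3 without mutant FL 1 or 2.

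Genes lower in mutant HL outside the p53 list included signalling and matrix genes. Cxcr4, the receptor of the chemokine CXCL12, stood at 3.99, 4.47 and 3.68 rescaled TPM in mutant FL and at 1.62, 2.27 and 1.16 in mutant HL, next to 1.71 to 2.41 in the WT libraries (-0.93 ± 0.14, limma adjusted p = 0.0145). Mmp2, a matrix metalloproteinase, stood at 15.5, 20.8 and 15 in FL and at 10.48, 9.14 and 7.43 in HL (-0.85 ± 0.16, 0.0483). Myc, the growth-promoting transcription factor, stood at 2.53, 2.01 and 1.98 in FL and at 0.792, 1.24 and 1.01 in HL (-0.66 ± 0.12, limma adjusted p = 0.0483). None of the 3 overlapped between limbs. Med23, a subunit of the Mediator complex (-0.64 ± 0.10, limma adjusted p = 0.0145), Rab3ip, an exchange factor for Rab8 (-0.58 ± 0.09, 0.0199), and Hps5, a subunit of the BLOC-2 complex (-0.58 ± 0.11, 0.0483), were lower by similar amounts. Myc and Hps5 lost the call in all 6 leave-outs, Cxcr4 without mutant FL 1 or 2 or mutant HL 1, and Mmp2, Med23 and Rab3ip in every leave-out but that of mutant FL 3.

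Muscle precursor genes were lower in mutant HL throughout. Of 10 tested, 10 were lower, against 55.0% of all genes, with a median of -0.58. The limbs did not overlap for 5 (12.3% of all genes lay lower without overlap), and 1 was called (0.18% of all genes were called lower): Lbx1, a factor of migrating muscle precursors. Lbx1 was 1 of 2 members that passed the filter only with mutant FL, in which it was high. Of the other 8 all were lower, 4 without overlap and 0 called. Lbx1 stood at 0.929, 0.972 and 1.28 rescaled TPM in mutant FL and at 0.391, 0.396 and 0.41 in mutant HL, next to 0.389 to 0.5 in the WT libraries (-0.55 ± 0.09, limma adjusted p = 0.0231), and lost the call in every leave-out but that of mutant FL 3. In WT 6 of 10 were lower, with a median of -0.14. The 7 defining markers summed to 9.15 to 16.2 in mutant FL, 4.41 to 5.22 in mutant HL, 7.33 to 10.8 in WT FL and 5.22 to 6.05 in WT HL. The 7 somite and trunk mesoderm markers summed to 12.2 to 17.1 in mutant FL and 6.79 to 11.8 in mutant HL. The WT limbs were apart in the same direction, at 16.9 to 18.6 in FL and 11.9 to 14.5 in HL. A single marker reached 12.9 in a mutant library, so the sum does not show that the markers moved together. In the somite and trunk list 2 genes were tested. The filter was passed by 1 of them only with mutant FL, and the other was at -0.02. Actc1, an actin of heart and early skeletal muscle, stood at 13.5 and 15.9 in mutant FL 1 and 2, at 0.444 in mutant FL 3 and at most at 0.826 in mutant HL. The part of adjoining tissue in the dissected buds was not tested.

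The lists of the SHH, FGF, BMP, WNT and retinoic acid pathways held no called member in mutants. Among all genes 0.44% were called, so lists this short could hold none without differing from other genes. Across all 11126 genes 55.0% were lower in mutant HL, and 1788 had an unadjusted p under 0.05. Sonic hedgehog from the posterior margin and FGFs from the apical ridge sustain each other during outgrowth. Of 16 genes of the SHH pathway and the posterior mesenchyme, 14 were lower in mutant HL (median -0.25, WT 0.11). The limma test called 0, and 7 had an unadjusted p under 0.05. Without 1 member that passed the filter only with mutant FL, 13 of 15 were lower (median -0.26). Smo, which transmits the hedgehog signal, stood at 14.2, 15.7 and 14.5 rescaled TPM in FL and at 13.1, 12.9 and 13 in HL (-0.17, limma adjusted p = 0.274). Gas1, a co-receptor, was opposite (0.28, 0.26, but -0.22 on the deposited scale). Of 14 FGF signalling genes 11 were lower (median -0.17, WT 0.14), with 0 called and 5 at unadjusted p under 0.05. Here too 1 member passed the filter only with mutant FL, and without it 10 of 13 were lower (median -0.20). The most abundant FGF signalling members differed in sign. Dusp6, which limits ERK signalling, was at -0.23 (limma adjusted p = 0.399). Fgfr2 was at 0.21 (limma adjusted p = 0.235, but -0.29 on the deposited scale).

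BMP and WNT signalling genes had medians of -0.15 and -0.16 in mutants (15 and 19 tested, WT -0.14 and -0.08). The limma test called 0, with 4 and 5 at unadjusted p under 0.05. The filter was passed by 1 WNT gene only with mutant FL, and the median of the other 18 was -0.18. Id2, a BMP target, was at -0.15 (limma adjusted p = 0.481) and Wnt5a, which guides outgrowth, at -0.33 (0.365). Retinoic acid and proximal limb genes had a median of 0.13 (17 tested, 10 higher; WT 0.23; -0.32 on the deposited scale). Crabp1, a retinoic acid binding protein, stood at 18.6, 20.8 and 28.4 rescaled TPM in mutant FL and at 33.3, 31.7 and 61.4 in mutant HL, without overlap (0.83 ± 0.23, limma adjusted p = 0.152). Limb mesenchyme genes had medians of -0.23 in mutants and -0.22 in WT (17 of 20 lower in mutants), and chondrogenic genes -0.18 and -0.22 (11 tested). For the chondrogenic list the median turned to 0.14 without mutant FL 2.

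Surface ectoderm genes were mostly higher in mutant HL after rescaling. Of 22 tested, 17 were higher in mutant HL, with a median of 0.31 (WT -0.03), but -0.11 on the deposited scale, and 10 had all HL libraries above all FL libraries (9.66% of all genes). None was called by limma, with 8 at unadjusted p under 0.05. Their 8 defining markers summed to 39.8 to 52.1 rescaled TPM in mutant FL and 61.3 to 69.3 in mutant HL, but to 56.2 to 74.7 in WT FL and 37.0 to 61.4 in WT HL. Fgf8, the signal of the apical ridge, stood at 8.72, 7.27 and 16.9 in mutant FL and at 14.9, 12.7 and 25.4 in mutant HL, with overlap (0.67 ± 0.40, limma adjusted p = 0.407). Krt14, a keratin of basal ectoderm, stood at 18.1, 15.7 and 6.59 in FL and at 14.7, 17.7 and 4.18 in HL (-0.22, 0.829), lowest in the library numbered 3 of each limb.

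Gene classes of very high level held no called member in mutants, where 0.44% of all genes were called. Cytosolic ribosomal protein genes had a median of 0.15 (77 of 84 higher; -0.37 on the deposited scale) against -0.09 in WT, and replication-dependent histone genes 0.20 (55 of 66 higher; -0.30 on the deposited scale) against -0.20. The limma test called 0 in each class, with 6 and 12 at unadjusted p under 0.05. The 15 mitochondrially encoded genes were higher in HL throughout (median 0.32), but their median was -0.21 on the deposited scale. G1/S and G2/M genes of the cell cycle had medians of 0.005 and 0.07 (30 and 38 tested, 0 called, 6 and 7 at unadjusted p under 0.05). On the deposited scale these medians were -0.51 and -0.42. Pcna, the clamp of DNA replication, stood at 128, 115 and 144 rescaled TPM in FL and at 171, 188 and 192 in HL (0.51 ± 0.12, limma adjusted p = 0.0943), but at -0.01 on the deposited scale.

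**Figure D5:**
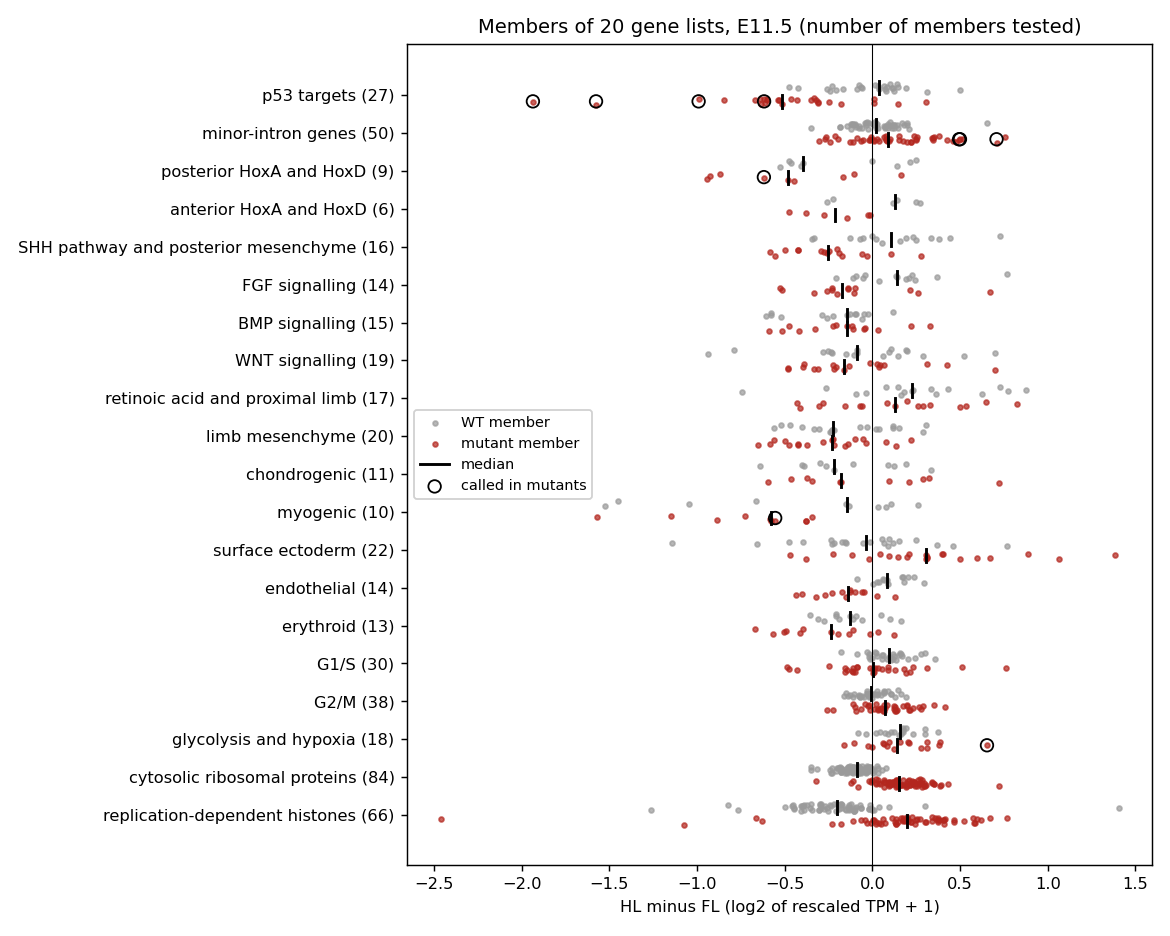
Members of 20 gene lists by HL minus FL on log2(rescaled TPM + 1) (horizontal axis), grey for WT and red for mutants, with black bars at the medians and rings around members called in mutants. The p53 targets lie furthest left as a group after the myogenic genes (medians -0.51 and -0.58), and ribosomal protein and histone genes lie to the right of 0 in mutants and to the left in WT, which on the deposited scale becomes -0.37 and -0.30 in mutants.

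The same comparison at E10.5 gave few calls. At that stage mutant FL 3 held hindlimb genes, with Pitx1 at 1.81, Tbx4 at 1.99, Hoxc10 at 4.62 and Isl1 at 10.4 rescaled TPM, where mutant FL 1 and 2 held at most 0.0142, 0.315, 0.187 and 0.2. The library labelled mutant FL 3 also held Tbx5 at 2.14, against 6.22 and 6.04 in the other mutant FL libraries. At this stage 7 of 11955 genes were called (0.0586%), 3 higher in HL (0.0251%) and 4 lower (0.0335%). The count was 11 with the replicate number as a block, and 4 of the 7 calls were among them. That the numbers are pairs is not established. Same-numbered mutant libraries met the pairing criterion at this stage, but the WT libraries numbered 2 did not. Sex-linked genes differed between mutant FL 3 (Xist 5.72 and Ddx3y 4.62 TPM) and mutant HL 3 (13.7 and 0). Pitx1 (3.22 ± 0.41, limma adjusted p = 0.0191) and Tbx4 (2.56 ± 0.32, 0.0191) were among the 7, and Tbx5 (-2.20 ± 0.43, 0.188) was not. The calls did not hold widely: no gene was called higher without mutant FL 1, FL 2, HL 1 or HL 2, with a pseudocount of 0.1 or without the filter, so the calls of Pitx1 and Tbx4 were lost in each of these, and without mutant FL 3 there were 7 calls, 4 of them higher. The p53 targets Eda2r (-0.22, limma adjusted p = 0.877), Ccng1 (-0.28, 0.877) and Plk2 (-0.23, 0.736) were not called. Eda2r stood at 1.24, 1.48 and 1.44 in E10.5 mutant FL and at 0.777, 1.13 and 1.25 in mutant HL, and Spc24 at 11.2, 10.1 and 13.8 against 14.2, 15.6 and 14.9. Reads of the E10.5 libraries were trimmed and those of E11.5 are not said to be, so the stages are set side by side and their difference was not tested.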

How the data were processed

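Total RNA of dissected limb buds was sequenced by the authors, 1 library per sample. As deposited, the values are TPM, given by gene symbol (38019 symbols, of which 36287 matched GENCODE M21, GRCm38), and the authors had scaled each library to 1000000. HISAT2 and mm10 are named in the submitters' processing notes. Which quantifier, annotation and strand setting were used is not given in the sources used here. Without read depth in TPM, low values have an unknown precision and no interval for counting error is given.

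Groups were taken from sample titles. Libraries of a stage were brought to 1 common median, on the log2 scale, of the genes that reached 5 TPM in all of them. Genes with at least 1 deposited TPM in at least 3 of the 12 libraries of a stage were kept. Their log2(TPM + 1) values were fitted by limma 3.58.1 with 4 group means and a trend of the variance with intensity, in R 4.3.3. Contrasts were HL against FL in mutants and in WT, the difference of the 2, and HL against FL in E10.5 mutants. P-values were two-sided and adjusted over all genes by the Benjamini-Hochberg method, with 0.05 as the threshold. Rnu11 was also compared by exact permutation. The code was tested on simulated data.

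Named genes are Rnu11; up to 15 of the largest rises and of the largest falls called, with no overlap between limbs and a mean of at least 2 rescaled TPM in the limb with more, leaving out predicted genes, Xist and Y-linked genes; all limb identity and tested HoxC genes; and up to 4 called members of each other list, or its 2 highest members. Neighbouring noncoding genes were named after their values were seen. There were 37 lists, written from general knowledge or by symbol pattern; the members and lists were chosen with earlier results of these data known. Alternatives were the deposited scale, protein-coding genes alone, a pseudocount of 0.1, no filter, all 24 libraries, the 6 compared libraries alone, a replicate block and leaving out each library. Leave-outs that keep the genes of the full fit, and the minor-intron list as first written, were added after seeing the data. The pairing at E10.5 comes from the replicate numbers in the titles. Deviations of same-numbered mutant libraries correlated at 0.106, 0.182 and 0.198, each over the criterion of 0.1. Those of WT correlated at 0.150, 0.066 and 0.286, so the WT libraries numbered 2 fell short of it. The differently numbered mutant FL 2 and HL 1 correlated at 0.110. At E10.5, 6 of 6 WT and 5 of 6 mutant libraries correlated best with the library of their own number. At E11.5 this held for 4 of 6 mutant and 0 of 6 WT libraries. Promoter sequences come from RefSeq (GRCm38.p6) and the Rnu11 transcript from GENCODE M21. Promoters of Tbx5, Pitx1, Hoxc10 and Hoxc11 were not used here. Figures were drawn with matplotlib 3.10.9.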

Additional observations from a re-analysis of the deposited data

Results flagged for a closer look

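Eda2r was the 1 gene called in a direct test of the limb difference between genotypes, a test it entered only through the mutant FL libraries, the group in which it was high. HL minus FL was -1.94 in mutants and 0.08 in WT, and mutant minus WT was -2.02 ± 0.24 on the log2 scale (limma adjusted p = 0.036). All 3 mutant FL libraries (3.23 to 6.55 rescaled TPM) lay above all 9 other E11.5 libraries (at most 0.632). The value kept its sign and stayed between -2.23 and -1.84 in each of the 12 leave-outs. Its adjusted p did not pass in the 9 leave-outs in which it was still above the filter and was highest without WT HL 3 (0.171). Without a mutant FL library it fell under the filter, and with the gene set left as in the full fit it passed without mutant FL 1 (0.0241) and mutant FL 3 (0.00019). It did not pass without the filter on low values (0.152).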

How the results depend on the processing

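The 49 genes called in mutants numbered 63 over nuclear protein-coding genes alone, 36 with a pseudocount of 0.1, 38 without the filter on low values, 49 without both mutant libraries numbered 3, 22 with all 24 libraries, 19 with the 6 compared libraries alone, 5140 on the deposited scale, and 12 to 88 when 1 library was left out. The 16 genes called in WT numbered 44 with the 6 WT libraries alone. The 1 gene called for the difference became 3 on the deposited scale, 2 with a pseudocount of 0.1, 2 with all 24 libraries, 0 without the filter, where 2112 had an unadjusted limma p under 0.05, and 0 to 1 when 1 library was left out. In none of the leave-outs with 1 call was that gene Eda2r, which was not tested without a mutant FL library. With the gene set left as in the full fit, 0 to 5 genes were called and Eda2r was among them in 3 of 12. The 7 calls in E10.5 mutants became 4 over protein-coding genes, 3 with a pseudocount of 0.1, 1 without the filter, 27 with all 24 libraries, 11 with the 6 libraries alone and 1 to 7 when 1 library was left out. Apart from the fewer samples or genes in some of these fits, the cause was not tested. Rnu11 in mutant HL over FL stayed between 1.02 and 1.44 (log2 of the ratio of means) when 1 library was left out.

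With the replicate number as a block, 32 genes were called in E11.5 mutants, 0 for the difference (1076 at unadjusted limma p under 0.05) and 11 in E10.5 mutants. At E11.5 deviations of same-numbered mutant libraries correlated at -0.011, 0.26 and 0.18, so the numbers did not meet the criterion for pairs. In mutants 4 of the 6 libraries correlated best with the library of their own number, FL 1 and HL 1 being the exceptions, a hint from the data and not the design. Calls lost under the block there are no measure of a weaker effect.

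The signs of several small differences depended on the processing. On the deposited scale the called genes Polr2e (-0.013), Uba3 (-0.017) and Ufm1 (-0.0015) turned negative. So did uncalled genes: Gas1 -0.22, Fgfr2 -0.29, Bmpr1a -0.48, Crabp2 -0.32, Msx1 -0.29, Col2a1 -0.40, Psat1 -0.46, Cycs -0.36, Cdk4 -0.52, Pcna -0.011, Top2a -0.46, Cdk1 -0.32, Hbb-y -0.49, Hbb-bh1 -0.40, Egfl7 -0.34, Rpl41 -0.29, Rpl32 -0.30 and Hist1h4c -0.15. With all 24 libraries Cdk4 was at -0.00438. Without both mutant libraries numbered 3 the signs turned for Hoxa3 (0.093), Nkd2 (0.025), Prrx1 (0.012), Zcrb1 (0.044), Cdk4 (-0.029), Egfl7 (-0.035), Gap43 (0.076), Sall1 (0.34) and Hist1h4k (0.13). When 1 library was left out, uncalled genes that changed sign ranged as follows: Hoxa3 -0.11 to 0.046, Bmpr1a -0.020 to 0.11, Nkd2 -0.39 to 0.12, Prrx1 -0.25 to 0.0091, Col2a1 -0.11 to 0.37, Col3a1 -0.13 to 0.10, Zcrb1 -0.11 to 0.060, Phgdh -0.13 to 0.040, Psat1 -0.021 to 0.098, Cdk4 -0.032 to 0.029, Top2a -0.0063 to 0.11, Hbb-y -0.13 to 0.27, Hbb-bh1 -0.053 to 0.26, Egfl7 -0.024 to 0.26, Pecam1 -0.25 to 0.0090, Krt14 -0.63 to 0.36, Gap43 -0.22 to 0.079, Tnni1 -0.56 to 0.25, Meox1 -0.12 to 0.042, Sall1 -0.37 to 0.31, Hoxa13 -0.75 to 0.15 and Hist1h4k -0.11 to 0.13. TPM holds no read depth, so how far depth limits the low values is unknown.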
